A study of Mus musculus with 6 samples.

Results

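Acta2, Actg2, Tagln, Tpm1, Tpm2, Myh9 and Cyr61 are contractile genes and targets of the transcription factors SRF and YAP. They were taken by name from the deposited tables of mouse embryonic fibroblasts (MEFs), where they are 7 of 38483 listed genes, all of them on the minus strand. The study compared MEFs heterozygous for a knockout of Nipbl with WT MEFs to learn which transcripts respond to the loss of 1 copy of this cohesin loader, the gene mutated in many people with Cornelia de Lange syndrome. The 6 cultures were 3 WT and 3 Nipbl+/- cultures of strain CD1, all harvested at passage 3 in DMEM with fetal bovine serum, and libraries were made from total RNA after removal of rRNA. The labels give the genotypes as wild type and NIPBL-haploinsufficient. The study's methods describe MEFs prepared from mid-gestation embryos of 1 pregnant mouse after limbs, brain and internal organs had been taken away, and WT littermates as controls. Both groups were thus grown in serum, and a MEF culture is a mixed population of mesenchymal cells rather than 1 cell type.

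Fibroblasts that take on a contractile state, called myofibroblasts, build stress fibers from smooth muscle actin, nonmuscle myosin II and tropomyosin. Free actin monomer holds the SRF cofactors of the MRTF family in the cytoplasm, so that assembly of filaments releases them to the nucleus, where SRF binds the CArG box of actin, tropomyosin and Tagln genes. YAP and TAZ respond to tension and cell spreading in a related way and act through TEAD factors, with Cyr61, Ctgf and Ankrd1 among their classical targets. MEFs on stiff plastic in serum are known to express this program strongly.

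Promoter sequence is shown for an actin, a tropomyosin and the YAP target, as 1 example of each role described below. The sequences are those of RefSeq on GRCm38.p6 (the assembly also called mm10), each the 250 bases before the annotated start, and the table held 5 of the 7 genes. Capitals mark matches on either strand to CATTCC, the TEAD core (read as GGAATG on the other strand), to TATAAA, and to the CArG box with at most 1 G or C allowed in its core. None of these matches overlap each other.
Acta2, chr19:34255374-34255623, minus strand: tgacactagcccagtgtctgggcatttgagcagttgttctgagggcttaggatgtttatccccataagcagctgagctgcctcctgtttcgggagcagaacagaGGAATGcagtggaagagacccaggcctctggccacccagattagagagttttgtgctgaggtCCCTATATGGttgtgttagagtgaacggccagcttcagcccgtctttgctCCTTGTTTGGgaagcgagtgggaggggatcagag
Tpm1, chr9:67049214-67049463, minus strand: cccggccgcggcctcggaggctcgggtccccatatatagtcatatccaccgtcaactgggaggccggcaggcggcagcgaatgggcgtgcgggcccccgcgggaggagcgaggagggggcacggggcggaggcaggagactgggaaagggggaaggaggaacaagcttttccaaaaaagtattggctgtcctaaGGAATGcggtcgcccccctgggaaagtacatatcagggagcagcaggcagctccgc
Cyr61, chr3:145649986-145650235, minus strand: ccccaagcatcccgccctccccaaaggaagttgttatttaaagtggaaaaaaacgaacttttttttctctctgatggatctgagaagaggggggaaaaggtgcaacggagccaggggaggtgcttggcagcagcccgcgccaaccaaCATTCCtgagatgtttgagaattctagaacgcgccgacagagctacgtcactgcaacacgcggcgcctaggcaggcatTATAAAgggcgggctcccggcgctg
The Acta2 promoter held the relaxed CArG box at 84 to 75 and again at 34 to 25 bases before the start, the other 4 promoters had no match to it, and the allowance of 1 G or C was made after that sequence had been seen. The strict CArG box was in 1.47% and the relaxed one in 8.59% of 32841 RefSeq promoters of the same length. CATTCC was in 3 of the 5 promoters in the table, those shown, and had no match in the windows of Tpm2 and Myh9. It lay at 146 to 141 bases before the RefSeq start of Acta2, 56 to 51 before that of Tpm1 and 103 to 98 before that of Cyr61, and was in 12.6% of all promoters. The deposited annotation has other starts for some genes. Part of the Tpm1 window, its CATTCC match included, lies inside the Tpm1 gene as counted here, which reaches chr9:67049406, and part of the Tpm2 window lies inside Tpm2. The deposited Acta2 starts at chr19:34255336, farther from its matches than the RefSeq start. TATAAA stood 25 to 20 bases before the start of Cyr61. On the other strand it also matched 123 to 118 bases before the start of Myh9. It was in 12.4% of all promoters on either strand. Such a match describes the letters only and no binding was measured in these cultures.

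Total counts lay between 20307454 and 25990783 per culture. Each of the 19214 plus-strand genes had a count of 0 in every culture, so that Tpm3, Tpm4, Ctgf, Myl9, Mylk, Cnn1, Vcl and Zyx, among the closest partners of the 7 genes, cannot be read here. Nipbl had 128, 145 and 135 CPM (counts scaled to the library size after TMM normalization) in the WT replicates and 101, 101 and 100.3 CPM in the Nipbl+/- replicates, which is a log2 fold change of -0.43 with a standard error (SE) of 0.06 (adjusted p = 0.0213, edgeR quasi-likelihood test), and its groups did not overlap. That adjusted p rose to 0.0755 without WT replicate 1, to 0.0864 without Nipbl+/- replicate 1 and to 0.0772 without Nipbl+/- replicate 2. Of the fibroblast markers, Fn1 (fibronectin) had 14360 to 18188 CPM over the 6 cultures. Prrx1, a transcription factor of mesenchyme, had 303 to 347 CPM in WT and 249 to 278 CPM in Nipbl+/- cultures, without overlap (log2 fold change -0.30, edgeR adjusted p = 0.0661). Both were tested and 0 passed in edgeR's quasi-likelihood test. Prrx1 had an unadjusted p under 0.05 and DESeq2 called 1 (16.9% and 4.96% of all tested genes). The other 11 markers of that list, Col1a1, Col1a2, Pdgfra and Vim among them, lie on the plus strand.

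Acta2, Actg2 and Tagln were the smooth muscle genes of the set, and each had a ratio of about 1.1 between Nipbl+/- and WT MEFs. Their cultures overlapped in TMM-normalized CPM, and none of them passed the threshold of 0.05 on the adjusted p-value. Acta2 (ENSMUSG00000035783, mm10 chr19:34241090-34255336) encodes smooth muscle alpha-actin, the standard mark of a myofibroblast. Its level was 5643, 6342 and 5477 CPM in the WT replicates, in the order of their numbers, and 6601, 6602 and 6017 CPM in the Nipbl+/- replicates. WT replicate 2 stood above Nipbl+/- replicate 3, whereas the other Nipbl+/- values were above all WT values. The means were 5821 ± 459 CPM for WT and 6407 ± 337 CPM for Nipbl+/- (SD, n = 3 each). The ratio of Nipbl+/- to WT was 1.10 with a 95% interval of 0.992 to 1.22 (log2 fold change 0.14, SE 0.07, edgeR adjusted p = 0.328). Acta2 had the 22nd highest mean RPKM of the 9061 tested genes and took between 0.547% and 0.665% of all counts of a culture. In a bulk culture, a different number of contractile cells and a different amount of RNA per cell cannot be told apart.

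Actg2 (ENSMUSG00000059430, chr6:83512905-83536265) encodes the gamma-actin of visceral smooth muscle and is much lower in fibroblasts. It had 358, 419 and 349 CPM in the WT replicates and 424, 451 and 366 CPM in the Nipbl+/- replicates. Again WT replicate 2 lay above Nipbl+/- replicate 3. Means were 376 ± 38.1 and 414 ± 43.3 CPM (SD, n = 3 each), and the ratio was 1.10 with an interval of 0.950 to 1.28 (log2 fold change 0.14, SE 0.09, edgeR adjusted p = 0.500). Tagln (ENSMUSG00000032085, chr9:45929628-45936058) encodes transgelin, also called SM22 alpha, an actin-bundling protein of smooth muscle and a classical SRF target. It had 2572, 2731 and 2406 CPM in WT and 2879, 2908 and 2690 CPM in Nipbl+/- cultures. WT replicate 2 was above Nipbl+/- replicate 3 by a small margin, and the remaining pairs had the Nipbl+/- culture higher. Tagln means were 2570 ± 162 and 2825 ± 118 CPM (SD, n = 3 each), with a ratio of 1.10 and an interval of 1.005 to 1.20 (log2 fold change 0.14, SE 0.06, edgeR adjusted p = 0.276). Its unadjusted p of 0.0414 was the one value under 0.05 among the 7 genes, beside 16.9% of all tested genes with an unadjusted p under 0.05. Tagln overlaps the plus-strand gene Pcsk7, which was listed at 0.

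**Figure D1:**
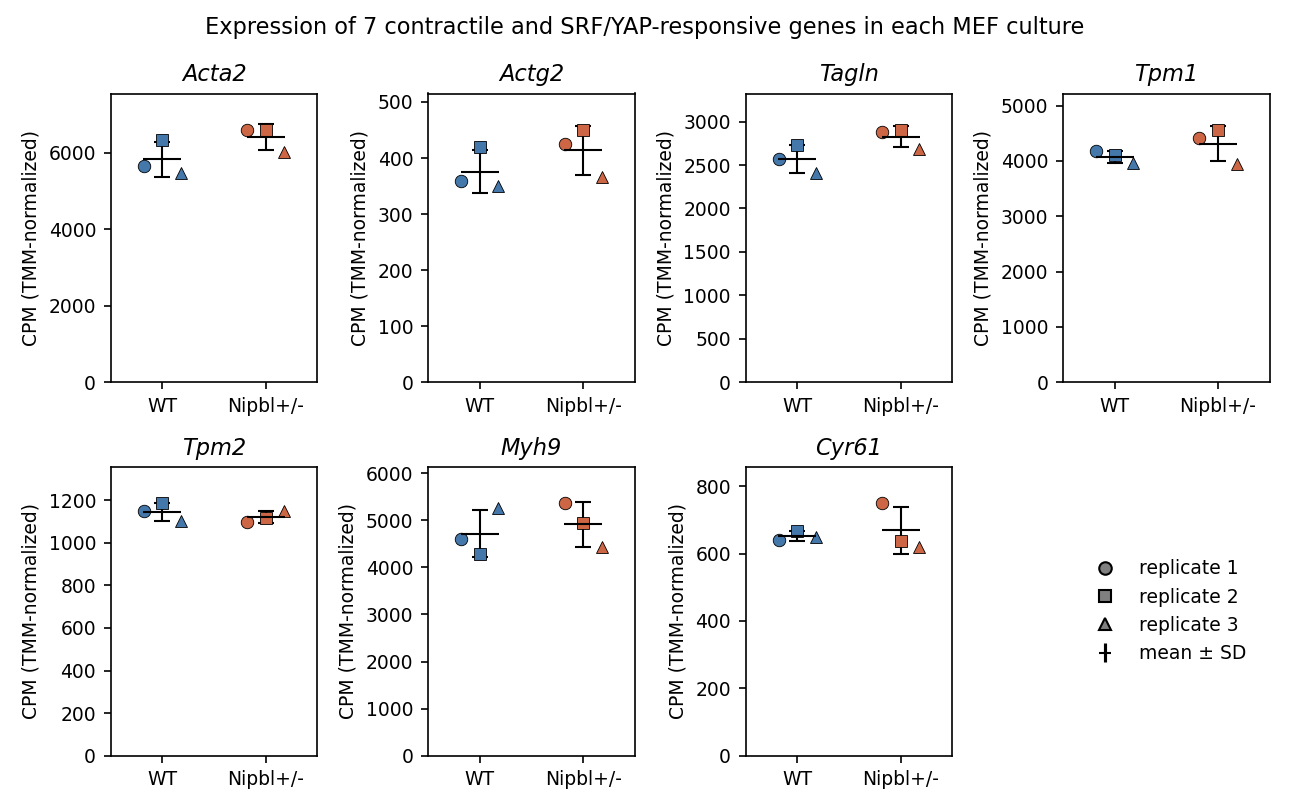
TMM-normalized CPM (linear axis from 0) of Acta2, Actg2, Tagln, Tpm1, Tpm2, Myh9 and Cyr61 in 3 WT (blue) and 3 Nipbl+/- (orange) MEF cultures, with symbols for the replicate number and lines for the mean and SD. In every panel the cultures of the 2 genotypes overlap, and for Acta2, Actg2 and Tagln WT replicate 2 lies above Nipbl+/- replicate 3.

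Since Acta2, Actg2 and skeletal Acta1 are close relatives whose reads could be shared, their coding starts are shown. Each is the start of the coding sequence in GENCODE M21 on GRCm38, within 1 exon, and capitals mark bases that differ from the Acta2 base they are aligned with. The Actg2 line is 3 bases shorter, its alignment having a gap opposite bases 10 to 12 of the Acta2 line, whereas the Acta1 line has no gap.
Acta2, chr19:34252464-34252553, minus strand: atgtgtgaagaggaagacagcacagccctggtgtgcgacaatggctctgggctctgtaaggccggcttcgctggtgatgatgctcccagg
Actg2, chr6:83527355-83527441, minus strand: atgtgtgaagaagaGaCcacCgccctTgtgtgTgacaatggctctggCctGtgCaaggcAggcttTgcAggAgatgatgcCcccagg
Acta1, chr8:123893608-123893697, minus strand: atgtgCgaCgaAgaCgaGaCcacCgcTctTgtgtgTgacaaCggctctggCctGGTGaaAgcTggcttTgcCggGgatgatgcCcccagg
Over the whole coding sequence Acta2 was 84.2% identical to Actg2, 85.4% to Acta1, 82.8% to Actb and 81.5% to Actg1. The longest stretch shared without a mismatch was 29 bases with Actg2, and none of the 1079 windows of 50 bases in Actg2 occurred in Acta2. With Actg1 the longest shared stretch was 56 bases and 7 of 1076 windows of 50 bases were shared. The read length and the treatment of reads with several matches are not given in the sources used here, so a small exchange of reads between Acta2 and Actg1 cannot be set apart. Tpm1 and Tpm2 were 76.3% identical with a longest shared stretch of 35 bases.

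Tropomyosins lie along actin filaments and set which myosins and binding proteins reach them. Tpm1 (ENSMUSG00000032366, chr9:67022590-67049406) had 4171, 4102 and 3956 CPM in the WT replicates and 4418, 4566 and 3952 CPM in the Nipbl+/- replicates. The first 2 Nipbl+/- values were above every WT value and the last was below every WT value. Means were 4076 ± 109 and 4312 ± 320 CPM (SD, n = 3 each), with a ratio of 1.06 and an interval of 0.964 to 1.16 (log2 fold change 0.08, SE 0.06, edgeR adjusted p = 0.538). Tpm2 (ENSMUSG00000028464, chr4:43514711-43523765) was the single gene of the set with a log2 fold change below 0. It had 1149, 1187 and 1101 CPM in WT and 1097, 1117 and 1150 CPM in Nipbl+/- cultures. The difference of the means, 1146 ± 43.0 against 1121 ± 26.9 CPM (SD, n = 3 each), was smaller than either SD. The Tpm2 ratio of 0.979 had the narrowest interval of the 7 genes, 0.911 to 1.05 (log2 fold change -0.03, SE 0.05, edgeR adjusted p = 0.782), and its sign depended on the scaling, with a log2 fold change of 0.0083 with library sizes alone, a scaling under which the median of all tested genes was 0.03.

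Myh9 (ENSMUSG00000022443, chr15:77760587-77842175) encodes the heavy chain of nonmuscle myosin IIA, the motor of stress fibers. Its level was 4599, 4284 and 5260 CPM in the WT replicates and 5366, 4952 and 4425 CPM in the Nipbl+/- replicates. The genotypes covered nearly the same range. Means were 4715 ± 498 and 4914 ± 472 CPM (SD, n = 3 each), the largest SDs in CPM of the set, and the ratio was 1.04 with an interval of 0.904 to 1.20 (log2 fold change 0.06, SE 0.09, edgeR adjusted p = 0.785). Its sign was not stable either, since the log2 fold change was -0.0049 without WT replicate 2 and -0.01 without Nipbl+/- replicate 1. Cyr61 (ENSMUSG00000028195, chr3:145646971-145649985, now named Ccn1) encodes a secreted matrix protein that binds integrins and is a direct target of YAP. It had 641, 668 and 649 CPM in WT and 750, 637 and 621 CPM in Nipbl+/- cultures. The highest and the 2 lowest values were all Nipbl+/-. Means were 653 ± 14.1 and 669 ± 70.4 CPM (SD, n = 3 each), with a ratio of 1.03 and an interval of 0.915 to 1.15 (log2 fold change 0.04, SE 0.07, edgeR adjusted p = 0.842). Without Nipbl+/- replicate 1 the log2 fold change was -0.06.

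Of the 7 genes, all 7 were tested, 0 passed the threshold of 0.05 on the adjusted p-value in edgeR's quasi-likelihood test and 1 had an unadjusted p under 0.05. Of all 9061 tested genes, 177 (1.95%) passed, 94 of them higher and 83 lower in Nipbl+/- MEFs. The same count for the 7 genes was 0 in edgeR's exact and likelihood ratio tests and in DESeq2, where 4.76%, 4.88% and 4.96% of all genes passed. Their log2 fold changes ran from -0.03 to 0.14 with a median of 0.08, beside a median of -0.01 over all tested genes. In 6 of the 7 the log2 fold change was above 0, as in 48.4% of all tested genes. In TMM-normalized CPM, the number of genes whose 3 Nipbl+/- cultures all lay above or all below the 3 WT cultures was 0 of 7. The share of all tested genes was 22.8%. In the deposited RPKM, Acta2, Tagln and Tpm1 did not overlap, as described below. An exact two-sided permutation test on log2 CPM, which cannot go below p = 0.1 with 3 cultures against 3, gave p = 0.2 for Acta2, Actg2 and Tagln, 0.4 for Tpm1, 0.5 for Tpm2, 0.7 for Myh9 and 1 for Cyr61. The highest upper bound of a ratio was 1.28, for Actg2, and the lowest lower bound 0.904, for Myh9, so that the intervals of all 7 genes leave out a change of 1.5-fold.

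**Figure D2:**
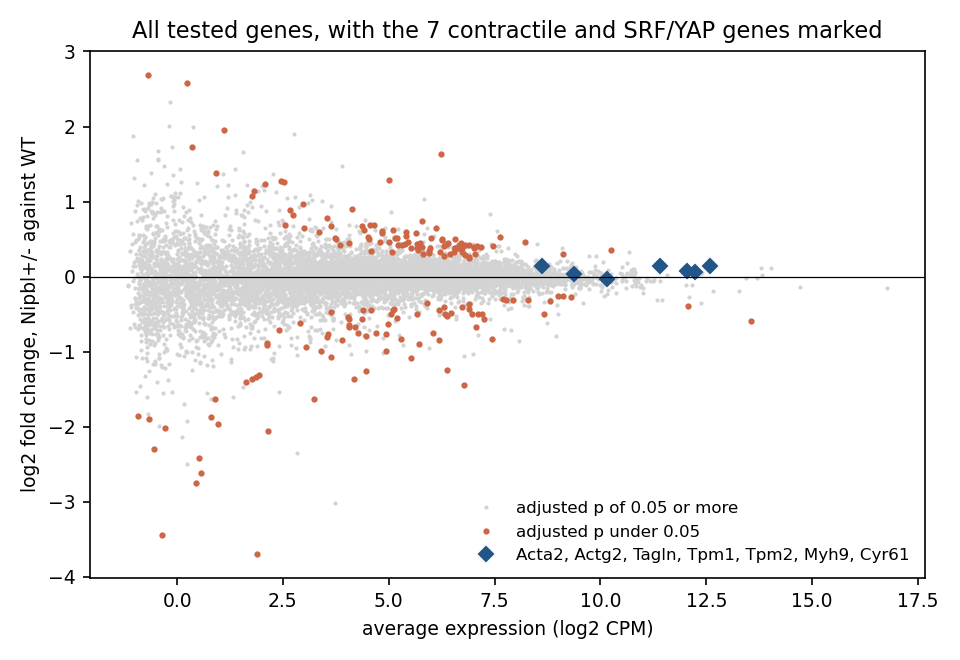
Log2 fold change of Nipbl+/- against WT (vertical axis) plotted over average log2 CPM (horizontal axis) for the 9061 tested genes, with genes of adjusted p under 0.05 in orange and the 7 contractile and SRF/YAP genes as blue diamonds. The 7 genes sit at the high end of expression and between -0.03 and 0.14 on the vertical axis.

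The counts of these genes were high enough that depth did not limit them. The lowest count of any of them in any culture was 7530, for Actg2 in WT replicate 3, and the highest was 172745, for Acta2 in Nipbl+/- replicate 2. Counting error alone corresponds to a coefficient of variation of 0.291% for Acta2 and 1.15% for Actg2, whereas the coefficient of variation between cultures of a genotype was 2.17% to 10.6% over the 7 genes. The spread between cultures therefore set the width of the intervals. Together the 7 genes took 1.86%, 1.93% and 1.94% of all counts in the WT replicates and 2.16%, 2.14% and 1.98% in the Nipbl+/- replicates. These shares did not overlap between the genotypes, with Acta2 and Myh9 contributing the most counts in each culture, and they are shares before TMM normalization. After TMM normalization the sum was 19134 to 19733 CPM in WT and 19221 to 21535 CPM in Nipbl+/- cultures, which overlapped.

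Levels of different genes can be compared only per length, for which the deposited RPKM (counts scaled by gene length and library size) was used. Acta2 was highest at 3109 ± 209 RPKM for WT and 3525 ± 137 RPKM for Nipbl+/- (SD, n = 3 each). Tagln followed at 1541 ± 70.0 and 1746 ± 50.3 RPKM, then Tpm1 at 598 ± 3.97 and 651 ± 40.4 RPKM. These first 3 genes were separated from each other and from the rest in every culture. In RPKM, which carries no TMM factor, these 3 genes did not overlap between the genotypes, with the Nipbl+/- cultures higher. For Acta2 the highest WT value was 3349 RPKM and the lowest Nipbl+/- value 3367 RPKM. The overlap of these genes in TMM-normalized CPM was thus not kept in RPKM. Actg2, Tpm2, Myh9 and Cyr61 overlapped in RPKM too. The share of all tested genes without overlap in RPKM was not taken. Tpm2 had 366 to 394 RPKM over the 6 cultures and Myh9 312 to 403 RPKM, and Tpm2 was the higher of the pair in 4 of 6 cultures, so their order is not resolved. Cyr61 at 296 to 359 RPKM was below Myh9 in each culture although their ranges overlapped. Actg2 was the lowest at 215 to 281 RPKM. The counts and RPKM imply a length of 1.84 kb for Acta2, 1.62 kb for Actg2, 6.71 kb for Tpm1, 3.01 kb for Tpm2 and 13.4 kb for Myh9. An RPKM over a longer length than that of the transcripts present would understate the level, and which transcripts of Tpm1 were made cannot be read from counts per gene.

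Acta2, Actg2 and Tagln ranked the 6 cultures in the same order. From low to high this order was WT replicate 3, WT replicate 1, Nipbl+/- replicate 3, WT replicate 2, Nipbl+/- replicate 1 and Nipbl+/- replicate 2. For Acta2 the last 2 of these were nearly tied, at 6601 and 6602 CPM. The share of all tested genes with this order was not counted. Over the 6 cultures, which share library and genotype effects, the Pearson correlation of log2 CPM was 0.97 between Acta2 and Tagln, 0.95 between Acta2 and Actg2 and 0.90 between Actg2 and Tagln. The correlations of these 3 genes with Tpm1 were 0.74 to 0.82 and those with Cyr61 0.39 to 0.47. Myh9 and Tpm2 stood apart from the smooth muscle genes, with correlations between -0.03 and 0.09, and from each other, with a correlation of -0.97. The cultures high in Myh9 were thus low in Tpm2. These correlations are given as descriptions of 6 cultures, without a test.

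**Figure D3:**
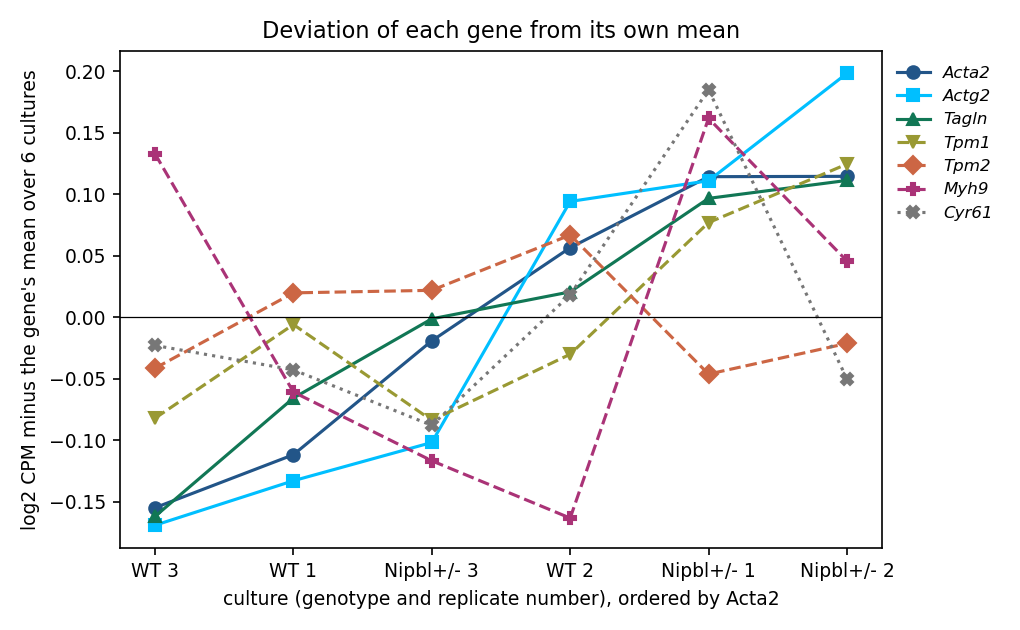
Log2 CPM of each of the 7 genes minus that gene's mean over the 6 cultures (vertical axis), with the cultures ordered by Acta2 from low to high (horizontal axis) and lines joining the values of a gene. Acta2, Actg2 and Tagln climb in the same order, whereas Myh9 and Tpm2 mirror each other.

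The cultures also fall into 2 classes by the counts of Xist, the noncoding RNA of the inactive X chromosome, and Ddx3y, a gene of the Y chromosome, and these classes cross the genotypes. WT replicate 3 and Nipbl+/- replicates 1 and 2 had 7544 to 7882 counts of Xist and 4 to 11 of Ddx3y, whereas WT replicates 1 and 2 and Nipbl+/- replicate 3 had 1 to 25 counts of Xist and 5240 to 5859 of Ddx3y. Myh9 had 4952 to 5366 CPM in the first class and 4284 to 4599 CPM in the second. Tpm2 had 1097 to 1117 CPM in the first class and 1149 to 1187 CPM in the second. Thus 2 of the 7 genes did not overlap between the classes, in opposite directions, beside 8.56% of all tested genes. The part of this class in their levels was not tested. The WT culture with the most Acta2, replicate 2, and the Nipbl+/- culture with the least, replicate 3, both belong to the second class.

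Because the smooth muscle genes moved together over cultures, the other genes were also expressed as a percentage of the Acta2 CPM of the same culture. Actg2 was 6.35%, 6.61% and 6.38% of Acta2 in WT and 6.43%, 6.83% and 6.08% in Nipbl+/- cultures. Tagln was 45.6%, 43.1% and 43.9% in WT and 43.6%, 44.0% and 44.7% in Nipbl+/- cultures. The exact permutation test of the log2 ratio gave p = 1 for both. Tpm2 was 20.4%, 18.7% and 20.1% of Acta2 in WT and 16.6%, 16.9% and 19.1% in Nipbl+/- cultures, where WT replicate 2 and Nipbl+/- replicate 3 overlapped. For Tpm2 the exact two-sided permutation test gave p = 0.2, which became 0.933 after Benjamini-Hochberg adjustment over the 7 ratios, Acta1 included. Myh9 varied most, from 67.6% to 96.0% of Acta2, with both extremes in WT cultures. These percentages take no account of gene length, so they compare cultures and not the level of a gene with that of Acta2.

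Among the related genes, the actins and tropomyosins gave no change that passed. All 6 actins, which include Acta2 and Actg2, were tested and 0 passed, with a median log2 fold change of 0.08. Actb, the cytoplasmic beta-actin, had 11024 to 11423 CPM in WT and 10802 to 11263 CPM in Nipbl+/- cultures (log2 fold change -0.01, edgeR adjusted p = 0.893). Actg1, the cytoplasmic gamma-actin, had a log2 fold change of 0.03 with an interval of -0.06 to 0.13. Skeletal Acta1 had 267, 338 and 237 CPM in WT and 310, 293 and 339 CPM in Nipbl+/- cultures (log2 fold change 0.16, adjusted p = 0.550), and cardiac Actc1 had at most 0.757 CPM in any culture. Of the 4 tropomyosins, Tpm3 and Tpm4 were listed at 0 and the other two are described above.

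Of 15 smooth muscle contractile genes, 7 were listed at 0 on the plus strand and 8 were tested. Of these 8, which include Acta2, Actg2 and Tagln, 1 rose and 0 fell (1.04% and 0.916% of all tested genes). Their median log2 fold change of 0.14 thus rests in part on Acta2, Actg2 and Tagln themselves. The gene that rose was Smtn, which encodes smoothelin, an actin-binding protein of contractile smooth muscle. It had 64.1, 65.2 and 68.2 CPM in the WT replicates and 87.7, 83.4 and 76.0 CPM in the Nipbl+/- replicates, without overlap. The log2 fold change of Smtn was 0.32 (SE 0.06, edgeR adjusted p = 0.0422). The call was lost when any culture but Nipbl+/- replicate 3 was left out, with adjusted p = 0.162, 0.0679 and 0.0715 without WT replicates 1, 2 and 3 and 0.143 and 0.136 without Nipbl+/- replicates 1 and 2. It was also lost with the replicate number as a block (adjusted p = 0.0867), with the Xist and Ddx3y class of the culture as a covariate (0.0579) and in limma on log2 RPKM (0.0660). Myh11, the smooth muscle myosin heavy chain and the most specific marker of that lineage, had 88.8, 87.9 and 76.8 CPM in WT and 113, 84.9 and 104 CPM in Nipbl+/- cultures (log2 fold change 0.25, adjusted p = 0.278). Pdlim7, a PDZ-LIM protein of stress fibers, had 190 to 220 CPM in WT and 222 to 227 CPM in Nipbl+/- cultures (log2 fold change 0.15, adjusted p = 0.276). Synpo2, at 7.38 to 11.0 CPM, had 0.26 on the log2 scale (adjusted p = 0.425).

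Of 13 genes of nonmuscle myosin II and its regulators, Myh9 included, 6 were tested and 0 passed, with a median log2 fold change of 0.03. The light chains Myl6 and Myl12a had log2 fold changes of 0.02 and 0.04, the kinase Rock1 had 0.0025, and the heavy chain Myh14 had 0.23 at 2.29 to 4.46 CPM. Of 29 actin-binding and focal adhesion genes, 13 were tested and 0 passed, with a median of 0.09, and 5 of them did not overlap between the genotypes (22.8% of all tested genes). Tln1, which encodes talin 1, the link from integrins to actin, had 1495, 1438 and 1479 CPM in WT and 1694, 1648 and 1667 CPM in Nipbl+/- cultures. This log2 fold change of 0.18 (SE 0.04, edgeR adjusted p = 0.0579) was above the estimates of the 7 genes, a difference that was not tested. Tln1 did pass in edgeR with library sizes alone (adjusted p = 0.0414) and without a filter on low counts (0.0423), and in DESeq2 (0.0125). It passed in none of the fits that left out a culture. Flna, the actin crosslinker filamin A, had 6269, 6094 and 6361 CPM in WT and 6783, 6957 and 7085 CPM in Nipbl+/- cultures (log2 fold change 0.15, adjusted p = 0.0974). Tln2, which encodes talin 2, had a log2 fold change below 0, at 262, 302 and 252 CPM in WT and 212, 220 and 177 CPM in Nipbl+/- cultures (-0.42, adjusted p = 0.0681). Tln2 did pass with the replicate number as a block (adjusted p = 0.0433), in edgeR's exact and likelihood ratio tests (0.0169 and 0.0167), in DESeq2 (0.0010) and without a filter on low counts (0.0262), and in none of the fits that left out a culture. The alpha-actinin Actn1 had a log2 fold change of 0.09 with an interval of -0.04 to 0.21.

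**Figure D4:**
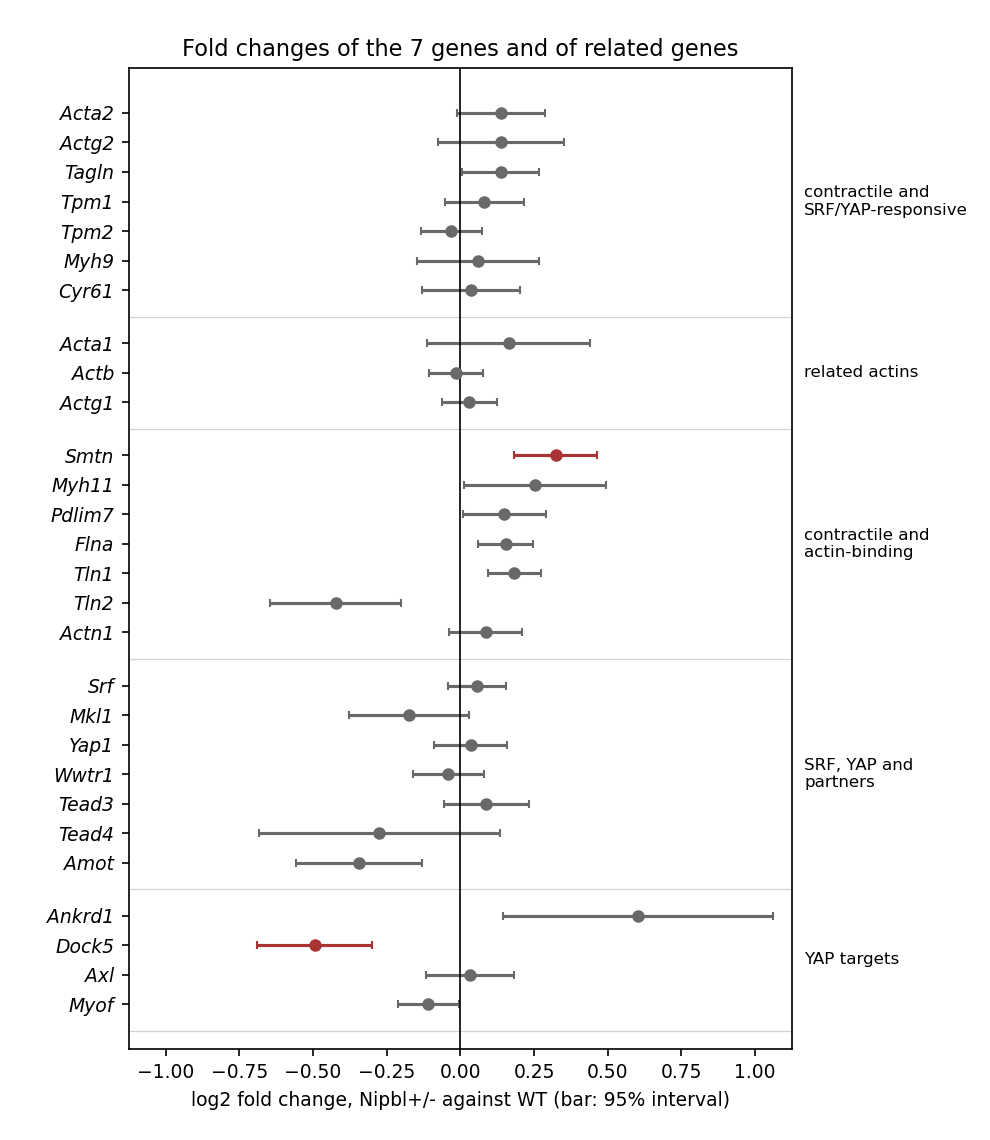
Log2 fold change of Nipbl+/- against WT (horizontal axis, points) with its 95% interval (bars) for the 7 genes and for related actins, contractile and actin-binding genes, SRF and YAP factors and YAP targets, in red where the adjusted p was under 0.05. The intervals of the 7 genes lie between -0.15 and 0.35, and only Smtn at 0.32 and Dock5 at -0.49 are red among the genes drawn.

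The factors that drive these genes were measured in part. Srf had 71.52 to 72.55 CPM in WT and 72.61 to 76.35 CPM in Nipbl+/- cultures, without overlap by a narrow margin. Its log2 fold change was 0.06 with an interval of -0.04 to 0.16. Mkl1, the MRTF-A cofactor, had 56.0 to 63.8 CPM in WT and 48.5 to 60.6 CPM in Nipbl+/- cultures (log2 fold change -0.17, edgeR adjusted p = 0.363), and Myocd, the smooth muscle cofactor, was at 1.96 to 4.18 CPM with a log2 fold change of -0.17. None of the 3 tested genes of 4 in this list passed, with a median log2 fold change of -0.17, and Mkl2 was listed at 0. Of the 3, 1 did not overlap between the genotypes, which was Srf (22.8% of all tested genes). Of 26 SRF targets, which include the 7 genes themselves, 15 were tested, 0 passed, 13 had a log2 fold change above 0 and the median was 0.06. The immediate early targets Junb, Ier2 and Fosb had log2 fold changes of 0.03, 0.01 and 0.19, with Fosb at 2.22 CPM or less.

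On the YAP side, Yap1 had 286 to 317 CPM in WT and 299 to 310 CPM in Nipbl+/- cultures (log2 fold change 0.03, interval -0.09 to 0.16), and Wwtr1, which encodes TAZ, had a log2 fold change of -0.04. The DNA-binding partners Tead3 and Tead4 had 0.09 and -0.28, with Tead4 at 7.61 to 13.2 CPM, and Tead1 and Tead2 were listed at 0. Of 17 Hippo pathway genes and YAP cofactors, 10 were tested and 0 passed, with a median log2 fold change of 0.0050. Amot, the angiomotin that binds YAP, had 242, 233 and 288 CPM in WT and 217, 181 and 204 CPM in Nipbl+/- cultures (log2 fold change -0.34, adjusted p = 0.108), without overlap. In all, 4 of the 10 tested genes did not overlap between the genotypes (22.8% of all tested genes). Amot was lower in Nipbl+/- cultures, whereas Nf2, Sav1 and Vgll4 were higher.

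Of 25 YAP targets, Cyr61 included, 15 were tested. Of these, 0 rose and 1 fell (1.04% and 0.916% of all tested genes), with a median log2 fold change of 0.03. In 5 of the 15 the genotypes did not overlap (22.8% of all tested genes). The one that fell was Dock5, which encodes a guanine nucleotide exchange factor for Rac. It had 172, 145 and 166 CPM in the WT replicates and 123, 104 and 116 CPM in the Nipbl+/- replicates, without overlap (log2 fold change -0.49, SE 0.09, edgeR adjusted p = 0.0328). The call held without WT replicate 2 and with the replicate block and was lost without WT replicates 1 and 3 (adjusted p = 0.126 and 0.0680), without Nipbl+/- replicates 1, 2 and 3 (0.0876, 0.110 and 0.0742) and in limma on log2 RPKM (0.0865). Ankrd1, an ankyrin repeat protein of strained muscle and a classical YAP target like Cyr61, had 147, 199 and 101 CPM in WT and 232, 234 and 214 CPM in Nipbl+/- cultures. All 3 Nipbl+/- values were above the WT values, and the WT cultures (149 ± 48.9 CPM, SD, n = 3) varied more than the Nipbl+/- cultures (227 ± 11.1 CPM, SD, n = 3). The log2 fold change of Ankrd1 was 0.60 (SE 0.20, edgeR adjusted p = 0.174), and without WT replicate 2 it was 0.86 with adjusted p = 0.0257. Without WT replicate 3 it was 0.39 (adjusted p = 0.156). Ankrd1 passed in 1 of the 6 fits that left out a culture and in 0 of the 11 other alternatives. Myof and Axl had log2 fold changes of -0.11 and 0.03. Of the 6 CCN genes, only Cyr61 could be tested, because Ctgf, Nov, Wisp1 and Wisp2 were listed at 0 on the plus strand and Wisp3 had 0 counts in each culture.

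**Figure D5:**
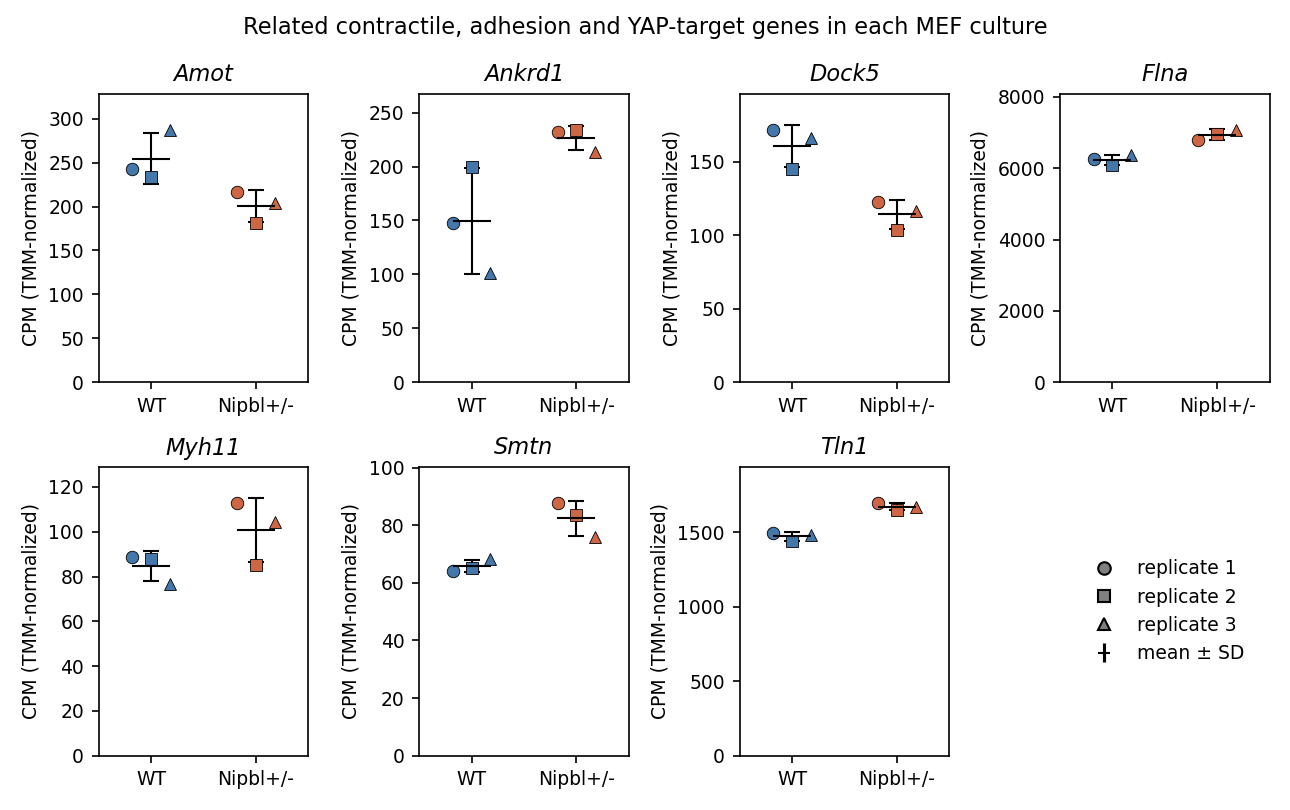
TMM-normalized CPM (linear axis from 0) of Amot, Ankrd1, Dock5, Flna, Myh11, Smtn and Tln1 in 3 WT (blue) and 3 Nipbl+/- (orange) MEF cultures, with symbols for the replicate number and lines for the mean and SD. These genes were picked for plotting after their values were seen, Smtn and Dock5 are the ones past the threshold, and Myh11 is the one whose genotypes overlap.

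Myofibroblasts also secrete matrix in response to TGF-beta. Of 22 genes of that kind, 9 were tested and 0 passed, with a median log2 fold change of -0.11. Lox, the collagen crosslinking enzyme, had 5761, 5429 and 6719 CPM in WT and 5119, 4635 and 4288 CPM in Nipbl+/- cultures (log2 fold change -0.35, edgeR adjusted p = 0.0920). Tgfbr2, the type II TGF-beta receptor, had 232, 204 and 274 CPM in WT and 183, 176 and 186 CPM in Nipbl+/- cultures (log2 fold change -0.38, adjusted p = 0.0940). Neither of these overlapped between the genotypes, as was the case for 4 of the 9 tested genes (22.8% of all tested genes). Lox, Tgfbr2 and Sparc were the lower ones in Nipbl+/- cultures and Fap was higher. Fn1, a component of the matrix to which stress fibers couple, showed 0.12 on the log2 scale (adjusted p = 0.479), Sparc -0.11 (0.267), Tnc 0.07 (0.757) and Fap 0.64 (0.181).

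Among the lists with 0 calls, an unadjusted p under 0.05 was found for 5 of the 13 actin-binding genes, 2 of the 15 SRF targets, 1 of the 10 Hippo pathway genes and 5 of the 9 matrix genes, and for 0 of the actins, tropomyosins, myosin II genes and SRF cofactors (16.9% of all tested genes). DESeq2 called 2 of the actin-binding genes (Tln1 and Tln2), 1 of the Hippo pathway genes (Amot) and 2 of the matrix genes. It called 0 in the other lists of this kind, beside 4.96% of all tested genes.

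The summed levels of markers of other cell types were also taken in each culture. The 12 smooth muscle and pericyte markers, 6 of them measured, summed to 190 to 198 CPM in WT and 217 to 246 CPM in Nipbl+/- cultures, and the defining Cnn1, Des and Lmod1 are on the plus strand and at 0. One of the 6 passed (1.95% of all tested genes), and it was Smtn, already counted among the contractile genes above. The median log2 fold change of these markers was 0.21. Of the skeletal and cardiac markers, Myf5, Myf6, Tnnc2 and Myh6 had at most 4 counts in any culture, and the sum of 243 to 347 CPM in WT and 300 to 345 CPM in Nipbl+/- cultures came almost entirely from Acta1. Of that list 4 genes were tested and 0 passed. The 7 measured of 12 macrophage markers, without Csf1r, Emr1 and Ctss, which are on the plus strand and at 0, summed to 53.1 to 72.3 CPM in WT and 84.3 to 168 CPM in Nipbl+/- cultures. Of these, 0 passed, with a median log2 fold change of 1.04. An unadjusted p under 0.05 was found for 7 (16.9% of all tested genes) and DESeq2 called 3 (4.96% of all tested genes). The sums of the 9 measured proliferation genes were 762 to 844 CPM in WT and 1023 to 1166 CPM in Nipbl+/- cultures, and 5 of them rose (1.04% of all tested genes), Top2a, Mki67, Bub1, Ccnb2 and Cdk1, and the list's median log2 fold change was 0.40. With the replicate block Bub1, Ccnb2 and Cdk1 did not pass (edgeR adjusted p = 0.0619, 0.0573 and 0.101), and in limma on log2 RPKM none of the 5 did (0.0582 to 0.0660). None of the 5 kept its call without WT replicate 1, WT replicate 3, Nipbl+/- replicate 1 or Nipbl+/- replicate 2, and 1 kept it without Nipbl+/- replicate 3. The part of the smooth muscle marker, macrophage and proliferation differences in the levels of the 7 genes was not tested. Endothelial markers summed to 12.9 to 16.4 CPM in WT and 11.4 to 16.0 CPM in Nipbl+/- cultures, epithelial ones to 0.742 to 1.78 and 2.29 to 3.01 CPM, and cartilage ones, with Col2a1 alone measured, to 119 to 472 and 255 to 319 CPM. In these 3 lists 2, 2 and 1 genes were tested and 0 passed in edgeR or DESeq2, with 1 epithelial gene, Krt8, at an unadjusted p under 0.05 (16.9% of all tested genes).

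The genes whose pattern over the 6 cultures was most like that of each of the 7 were sought among 8342 tested genes with an average log2 CPM above 0. For Acta2 these were Dzip3 (r = 0.99), which encodes a RING-type protein, and the predicted gene Gm12684 (r = 0.99). For Tagln the chaperone gene Dnajb4 (r = 0.997) is given, and for Actg2 the cDNAs 4930486L24Rik and 9630033F20Rik (r = 0.99 each). None of the genes named here is a contractile gene of the lists. Tpm1 was closest to Rarb (r = 0.99) and Abcb6 (r = 0.98), Tpm2 to Gm12254 (r = 0.99) and Mfsd9 (r = 0.98), Myh9 to Ubap2l and Gm12020 (r = 0.99 each), and Cyr61 to Tmem41a (r = 0.98) and Nfil3 (r = 0.97). Each is among the highest of 8342 values over only 6 cultures and is given as a description.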

How the data were processed

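Gene counts of 6 MEF cultures, 3 WT and 3 Nipbl+/-, were analyzed. Per the submitters' processing notes and the methods, the authors aligned reads to mm10 with TopHat2 2.0.10 and an Ensembl annotation. For each culture the authors deposited raw read counts and RPKM per gene, the counting tool not being given in the sources used here. The labels' extraction text speaks of ES cells, whereas the samples are labelled MEFs. The methods state edgeR at an FDR under 0.05.

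Low genes were removed by filterByExpr (minimum count 10) and library sizes scaled by TMM. Genotypes were compared by glmQLFTest of edgeR 4.0.16 (quasi-likelihood, R 4.3.3), with Benjamini-Hochberg adjustment over 9061 genes. An SE is the size of a log2 fold change over the root of its F statistic, and 95% intervals use the test's degrees of freedom. A prior count of 2 was used for log2 CPM in correlations. Fold changes and intervals come from the counts, and RPKM served for comparing levels between genes. Replicates of a genotype differed by more than counting noise (chi-square per degree of freedom 9.51 to 32.3), so each counted as 1 sample. Whether same-numbered cultures deviate together was checked, with correlations of -0.06, -0.04 and -0.14, and the numbers were not taken to pair cultures.

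Named are the 7 genes, Nipbl, listed genes past the threshold, the most expressed and most changed genes of each list, paralogs and the genes nearest in pattern, 1 of which is not reported here. The lists were written by hand, and genes and lists were chosen with earlier results of these data known. Steps were tested on simulated data. Alternatives were other scalings and filters, DESeq2 1.42.0, the exact and likelihood ratio tests of edgeR, limma 3.58.1 on log2(RPKM + 0.1), the replicate block, a covariate for cultures with more Ddx3y than Xist counts, and each culture left out.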

Additional observations from a re-analysis of the deposited data

How the results depend on the processing

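For the 7 genes, 17 alternatives were run and none of them put a gene past the threshold. Fits that left out a single culture gave log2 fold changes of 0.10 to 0.20 for Acta2, 0.07 to 0.23 for Actg2, 0.09 to 0.18 for Tagln, 0.04 to 0.14 for Tpm1, -0.06 to -0.0048 for Tpm2, -0.011 to 0.15 for Myh9 and -0.056 to 0.088 for Cyr61. The sign turned for Tpm2 with library sizes alone (0.0083) and in limma on RPKM (0.012), for Myh9 with the Xist and Ddx3y class as a covariate (-0.017), without WT replicate 2 (-0.0049) and without Nipbl+/- replicate 1 (-0.011), and for Cyr61 without Nipbl+/- replicate 1 (-0.056). These values lie near 0 and the cause was not tested. The median of all tested genes moved to 0.03 with library sizes alone and to 0.04 in limma on RPKM, both without TMM, and by less elsewhere.

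The number of genes higher in Nipbl+/- MEFs, 94 above, was 142 with library sizes alone, 218 in the exact test, 224 in the likelihood ratio test, 237 in DESeq2, 173 without a filter on low counts and 18 in limma on RPKM. The number lower, 83 above, was 213, 218, 212 and 152 in the exact test, the likelihood ratio test, DESeq2 and without the filter, and 12 in limma. Leaving out each culture gave 1 to 130 higher and 2 to 138 lower genes, with the lowest counts without Nipbl+/- replicate 1 and the highest without WT replicate 2. With the replicate number as a block, 34 genes were higher and 52 lower, and no correlation of deviations between same-numbered cultures was above 0.1. The block put none of the 7 genes past the threshold. Nipbl had a log2 fold change of -0.38 in limma on RPKM (adjusted p = 0.0647) and of -0.47 to -0.39 with a culture left out. For the 7 genes the spread between 3 cultures, and not the depth, limited the precision.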
